A study of Homo sapiens with 6 samples.

Results

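Prostaglandins are short-lived lipid signals made from arachidonic acid. A cytosolic phospholipase A2 releases the acid from membranes, a cyclooxygenase turns it into prostaglandin H2, and a terminal synthase turns that into prostaglandin E2, which leaves the cell, acts on G protein-coupled EP receptors and is inactivated by a dehydrogenase and a reductase. In breast and other epithelial tumours the pathway is best known for the inducible cyclooxygenase, an inflammation gene that responds to NF-kB and cyclic AMP signals. The genes described are the 10 of 56478 gene rows of the count table whose symbol is PTGS1, PTGS2, PTGES, PTGES2, PTGES3, HPGD, PTGER2, PTGER4, PLA2G4A or PTGR1. They were read in 6 libraries of BT20 (a basal, triple negative line from a human breast tumour), cultured with serum. A control hairpin is carried by 3 of them (pLK0-shControl, here shControl) and a hairpin against cytokeratin 5, the KRT5 product, by the other 3 (pLK0-shCK5-425222, here shCK5-22). The labels name 1 hairpin per arm and no further treatment. They do not say whether the libraries of an arm came from separate cultures. The p-values therefore set the gap between arms against the spread of these libraries, which may be technical only.

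Total counts ran from 47703937 to 65541734 per library. KRT5, the targeted gene, stood at 241 ± 8.58 CPM (counts scaled to library size, corrected by TMM normalization) in shControl against 22.6 ± 1.52 CPM in shCK5-22 (SD, n = 3 each), so no library went against its label. Of 8 BT20 identity genes tested, 0 were higher and 5 lower: KRT17 (235 to 153 CPM), ERBB2 (120 to 83.8), CDH1 (553 to 429), ESR1 (14.5 to 11.5) and EGFR (1477 to 1303). ESR1, PGR and ERBB2 were listed because a triple negative line has them low, so lower values there are not a loss of identity. KRT8 (3815 CPM in shControl), KRT18 and EPCAM were not called, and PGR was near 0. Summed blood cell markers, 12 genes for leukocytes and, with HBA1 and HBB, red cells, came to between 6.56 and 7.02 CPM in shControl. In shCK5-22 they came to between 6.96 and 9.03 CPM, and in both arms mostly from CSF1R. CD3D, MS4A1 and CD68 were listed at 0 throughout. ITGAM rose from 0.928 to 2.23 CPM (adjusted p = 4.88e-05), the 1 called of 4 tested, and PTPRC was not called. The 8 fibroblast markers, of which 2 were at 0 throughout (PDGFRA and THY1), summed to 32.7 to 34.5 CPM and 28.99 to 30.3 CPM, mostly from COL1A1. All 4 tested were called, COL1A1 (32.01 to 26.9 CPM) and FAP (1.59 to 0.871 CPM) lower, PDGFRB (0, 6 and 4 counts to 80, 46 and 66) and LUM (4, 4 and 10 counts to 26, 16 and 24) higher, and COL3A1, not tested, went from 2 counts in each library to 18, 10 and 8. The 6 endothelial markers summed to 24.1 to 31.8 CPM and 19.7 to 32.0 CPM, mostly from CDH5 (21.2 and 22.2 CPM, not called). PECAM1 alone was called, falling from 5.02 to 2.15 CPM (adjusted p = 0.0429). That call was lost without shControl replicate 3 or without shCK5-22 replicates 2 or 3, with adjusted p up to 0.128 and down to 4.11e-07 in the alternatives. The part of these markers in any result was not tested. Library shCK5-22 replicate 1 stood apart from the others of its arm, with chi-square values, divided by the degrees of freedom, of 33.7 and 19.8 against replicates 2 and 3, where those 2 gave 5.08 against each other.

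Knockdown libraries had less mRNA for the inducible cyclooxygenase and for the inducible prostaglandin E synthase, and slightly more for the co-chaperone p23, which also acts as a prostaglandin E synthase, and for an inactivating reductase. Of the 10 genes, 9 passed the filter on low counts and PTGER4 was listed at 0. In edgeR's quasi-likelihood test, with Benjamini-Hochberg adjustment over all 18008 genes tested and a threshold of 0.05, 3 of the 9 were higher (PTGS1, PTGES3 and PTGR1), 3 were lower (PTGS2, PTGES and PLA2G4A) and 3 were not called (PTGES2, HPGD and PTGER2). Over all genes tested 34.2% were called, 17.4% higher and 16.8% lower. The groups did not overlap for 6 of the 9, where this held for 45.1% of all genes tested. The median log2 fold change of the 9 was 0.09, beside -0.01 over all genes tested. With so few genes these shares are a description of the list.

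**Figure D1:**
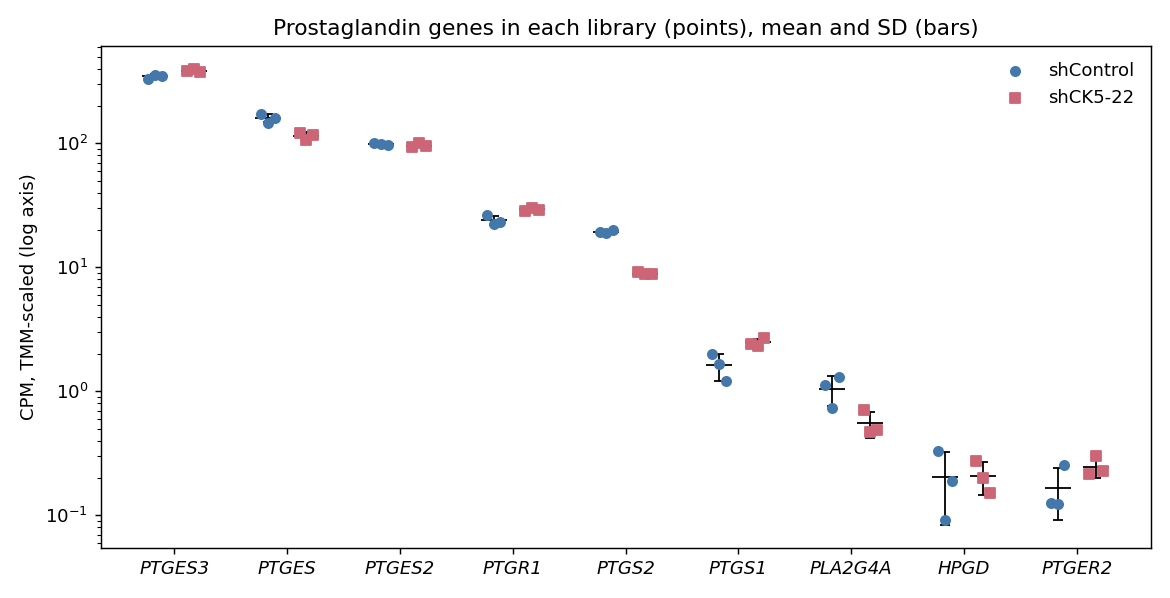
CPM (TMM-scaled, log axis) of the 9 prostaglandin genes with counts in each of 3 shControl libraries (blue circles) and 3 shCK5-22 libraries (red squares), with the mean and SD as black bars. The groups are apart for PTGES3, PTGES, PTGR1, PTGS2, PTGS1 and PLA2G4A, and overlap for PTGES2, HPGD and PTGER2.

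The 2 cyclooxygenases moved in opposite directions. PTGS2 encodes cyclooxygenase 2, the inducible enzyme, and lies at chromosome 1, 186671791 to 186680427 on the minus strand (GRCh38). It stood at 19.4, 18.8 and 19.9 CPM in shControl replicates 1, 2 and 3, and at 9.11, 8.80 and 8.78 CPM in shCK5-22 replicates 1, 2 and 3. All shCK5-22 libraries were below all shControl libraries, and the spread within an arm was small beside the gap between arms. These levels rest on 464 to 1256 counts per library. PTGS2 fell by 1.12 on the log2 scale (SE 0.0683, 2.18-fold, adjusted p = 3.79e-11), and 263 of the 3019 genes called lower fell further. Its log2 fold change lay between -1.15 and -1.10 over the 15 alternatives tried.

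PTGS1 encodes cyclooxygenase 1, the constitutive enzyme, and lies at chromosome 9, 122370530 to 122395703 on the plus strand. Its level was 2.00, 1.66 and 1.21 CPM in shControl and 2.42, 2.34 and 2.69 CPM in shCK5-22. The arms did not overlap, but the shControl libraries spread widely, with replicate 3 the lowest. It rests on 76 to 158 counts per library. PTGS1 rose by 0.63 on the log2 scale (SE 0.183, 1.54-fold, adjusted p = 0.0105). The call was lost without shControl replicate 3 (0.45, adjusted p = 0.0875) and without shCK5-22 replicate 3 (0.57, adjusted p = 0.0504), and over the alternatives its adjusted p lay between 0.00338 and 0.0875.

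Per kilobase of merged exons, the PTGS2 level was 10.7, 12.5 and 18.2 times that of PTGS1 in shControl replicates 1, 2 and 3. In shCK5-22 replicates 1, 2 and 3 it was 4.13, 4.13 and 3.59 times. PTGS2 was the more abundant cyclooxygenase mRNA in all 6 libraries, with mean ratios of 13.8 ± 3.91 and 3.95 ± 0.311 (SD, n = 3 each). In shControl PTGS1 spread widely and PTGS2 little.

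**Figure D2:**
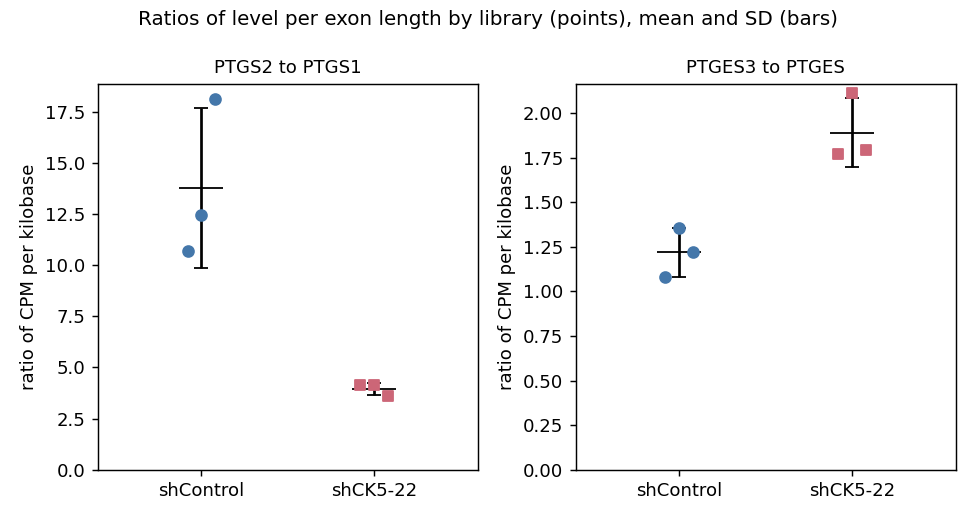
Ratio of levels per kilobase of exon within each library for PTGS2 to PTGS1 (left) and PTGES3 to PTGES (right), in 3 shControl (blue circles) and 3 shCK5-22 libraries (red squares), with mean and SD as black bars. The PTGS2 to PTGS1 ratio lies between 10.7 and 18.2 in shControl and between 3.59 and 4.13 in shCK5-22, and the PTGES3 to PTGES ratio is higher in all shCK5-22 libraries.

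PLA2G4A, the cytosolic phospholipase A2 that frees arachidonic acid, is a neighbour of PTGS2: it lies at chromosome 1, 186828953 to 186988981 on the plus strand, with 148.5 kb between the start sites of the divergent pair. Its level was 1.12, 0.736 and 1.30 CPM in shControl and 0.705, 0.468 and 0.492 CPM in shCK5-22. The lowest shControl library, replicate 2, was close to the highest shCK5-22 library, replicate 1, and the arms did not overlap. PLA2G4A fell by 0.91 on the log2 scale (SE 0.282, 1.88-fold, adjusted p = 0.0161) on 26 to 82 counts per library. The call was lost without shControl replicate 1 (adjusted p = 0.0519), shControl replicate 3 (0.117), shCK5-22 replicate 2 (0.0559) or shCK5-22 replicate 3 (0.0584), and its adjusted p ranged from 0.00574 to 0.117 over the alternatives. PACERR, a noncoding RNA that starts 0.2 kb from the PTGS2 start on the opposite strand, had 4, 6 and 14 counts in shControl and 0, 0 and 2 in shCK5-22. It was too low to pass the filter and was not tested.

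The promoter sequences of PTGS2, PLA2G4A and PTGS1 are shown because the first pair are neighbours that were both lower while the other cyclooxygenase was higher. They are RefSeq windows on GRCh38.p14, printed 5′ to 3′ along the gene from 250 to 11 bases before the start site: chr1:186680434-186680673 (minus strand) for PTGS2, chr1:186828699-186828938 (plus strand) for PLA2G4A and chr9:122370283-122370522 (plus strand) for the upstream start site of PTGS1. Capitals mark matches, on either strand, to the 8 motifs searched: TATAAA (the TATA box), CACGTG (an E-box), TGACGTCA (the cyclic AMP response element), TGACG (its half-site, which the full element contains), the kappa-B consensus, TGACNNNGC (the antioxidant response element core), the interferon-stimulated response element and GGGCGG (a GC box).
PTGS2: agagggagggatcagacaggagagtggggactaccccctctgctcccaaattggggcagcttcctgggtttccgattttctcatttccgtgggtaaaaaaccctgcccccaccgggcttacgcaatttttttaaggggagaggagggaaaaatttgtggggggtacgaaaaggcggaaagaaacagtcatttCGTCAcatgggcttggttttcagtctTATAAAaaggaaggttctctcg
PLA2G4A: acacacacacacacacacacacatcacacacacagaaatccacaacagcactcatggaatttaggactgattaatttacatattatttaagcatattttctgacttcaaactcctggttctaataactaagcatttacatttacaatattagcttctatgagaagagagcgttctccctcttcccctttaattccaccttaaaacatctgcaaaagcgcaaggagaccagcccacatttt
PTGS1: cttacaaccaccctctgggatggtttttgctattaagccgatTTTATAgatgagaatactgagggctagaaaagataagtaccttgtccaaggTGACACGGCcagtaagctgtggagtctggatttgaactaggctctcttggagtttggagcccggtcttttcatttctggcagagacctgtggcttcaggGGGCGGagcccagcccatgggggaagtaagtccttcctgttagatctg
The PTGS2 window held a TATA box 32 to 27 bases before the start and a half-site of the cyclic AMP element on the opposite strand 58 to 54 bases before it. Another half-site match lay after the start. TATAAA occurred in 11.5% and TGACG in 24.6% of the 35116 promoter windows of 300 bases in the table. The PLA2G4A window, with 37.5% G and C in the printed stretch, held none of the 8 motifs. The PTGS1 window held TATAAA on the opposite strand far from the start, 208 to 203 bases before it, an antioxidant core 157 to 149 bases and a GC box 58 to 53 bases before it. The kappa-B consensus searched was strict: 3 G, then A or G, then any 2 bases, then C or T at each of 2 positions, then 2 C. It occurred in 11.3% of all windows and in none of these 3, but the PTGS2 window came within 1 base of it at ggggactacc, 225 to 216 bases before the start. The PTGS1 window also came within 1 base of it, on the opposite strand after the start and so outside the printed stretch. The nearest stretch in the PLA2G4A window had 2 mismatches. With at most 1 mismatch allowed, 69.4% of all windows held the consensus. No reading about NF-kB follows from the lack of a strict match. E-boxes were found in 7.26%, full cyclic AMP elements in 1.85%, antioxidant cores in 13.3%, interferon-stimulated elements in 3.57% and GC boxes in 45.0% of them. A match is a description of the letters and not a sign of binding.

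The 3 terminal prostaglandin E synthases were the most abundant members, and each behaved differently. PTGES encodes the microsomal, inducible synthase that works with cyclooxygenase 2 (chromosome 9, 129738331 to 129753047, minus strand). The shControl libraries had 171, 147 and 161 CPM and the shCK5-22 libraries 120, 106 and 118 CPM, with all shCK5-22 libraries below all shControl libraries. PTGES fell by 0.48 on the log2 scale (SE 0.066, 1.39-fold, adjusted p = 0.000675), and by 0.42 to 0.54 when any 1 library was left out. PTGES3 encodes p23, a co-chaperone of HSP90 (chromosome 12, 56663341 to 56688408, minus strand). Its level was 331, 358 and 352 CPM in shControl and 382, 400 and 378 CPM in shCK5-22, a small but separate gap. PTGES3 rose by 0.16 (SE 0.0324, 1.11-fold, adjusted p = 0.000675). PTGES2, a further microsomal synthase (chromosome 9, 128120693 to 128128462, minus strand), had 101, 98.3 and 97.9 CPM in shControl against 93.0, 99.8 and 95.6 CPM in shCK5-22. The arms overlapped, and the difference of -0.04 (SE 0.0354) was not called (adjusted p = 0.375).

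Counts of PTGES3 could include reads of its processed copies, since 7.4% of its 50-base transcript windows occurred in other genes, and 5.12% in the pseudogene PTGES3P1 alone. PTGES3P1 and a further copy, PTGES3P3, were at 2.25 and 1.11 CPM in shControl, far below PTGES3, and were not called (adjusted p = 0.485 and 0.979). For PTGES 1.21% and for PTGR1 3.12% of windows were shared with other genes. PTGS1, PTGS2, PTGES2, HPGD, PTGER2 and PLA2G4A shared 0 windows.

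The inactivating enzymes differed in abundance and in call. PTGR1 is a reductase that acts after the dehydrogenase and also oxidises leukotriene B4 (chromosome 9, 111549722 to 111599893, minus strand). It stood at 26.4, 22.4 and 23.3 CPM in shControl and 28.6, 30.3 and 29.05 CPM in shCK5-22. The arms did not overlap, and PTGR1 rose by 0.29 (SE 0.0607, 1.22-fold, adjusted p = 0.000754). Its locus overlaps ZNF483 and a noncoding gene on the opposite strand, and no source names the strand setting of the counting. HPGD, the dehydrogenase that starts prostaglandin inactivation (chromosome 4, 174490177 to 174523154, minus strand), was close to the limit of detection. It had 16, 6 and 12 counts in shControl and 18, 12 and 8 in shCK5-22, or 0.333, 0.092 and 0.19 against 0.276, 0.201 and 0.151 CPM. The arms overlapped fully, and the log2 fold change of 0.09 had an SE of 0.528 (adjusted p = 0.919), so a difference was not detectable at this depth.

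Of the EP receptor genes among the 10, PTGER2 had few counts and PTGER4 gave no reading. PTGER2, which encodes the EP2 receptor coupled to cyclic AMP (chromosome 14, 52314305 to 52328606, plus strand), had 6, 8 and 16 counts in shControl and 14, 18 and 12 in shCK5-22. That is 0.125, 0.123 and 0.254 CPM against 0.215, 0.301 and 0.227 CPM, with 1 shControl library inside the range of the other arm. The log2 fold change of 0.55 had an SE of 0.495 and was not called (adjusted p = 0.441). PTGER4, the gene of the EP4 receptor (chromosome 5, 40679498 to 40693735, plus strand), was listed at 0 in all 6 libraries. That 0 is not read as absence of the mRNA: 16.2% of 18215 protein-coding symbols were at 0 in all libraries, among them JUNB, DUSP1 and TIA1, which most cell types express, and PTGER4 lies opposite TTC33, which overlaps its locus.

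The order of levels per kilobase of merged exons was nearly the same in both arms. In shControl PTGES3 (102.05 ± 4.06 CPM per kilobase) and PTGES (84.2 ± 6.36) led, followed by PTGES2 (32.6 ± 0.604), PTGR1 (6.40 ± 0.556) and PTGS2 (3.68 ± 0.11), all as means with SD over 3 libraries. PLA2G4A (0.366 ± 0.1) and PTGS1 (0.28 ± 0.0686) came next with ranges that overlapped, as did those of PTGER2 (0.0676 ± 0.0303) and HPGD (0.0371 ± 0.0219). In shCK5-22 the order of the abundant genes was unchanged, with PTGES3 at 114 ± 3.45, PTGES at 60.4 ± 4.19 and PTGS2 at 1.69 ± 0.0348 CPM per kilobase. There PTGS1, at 0.429 ± 0.0312, stood above PLA2G4A, at 0.193 ± 0.0454, with no overlap. Level per kilobase of the microsomal synthase PTGES was 22.9 ± 1.40 times that of PTGS2 in shControl and 35.8 ± 2.14 times in shCK5-22, so the synthase mRNA exceeded the cyclooxygenase mRNA in all 6 libraries.

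**Figure D3:**
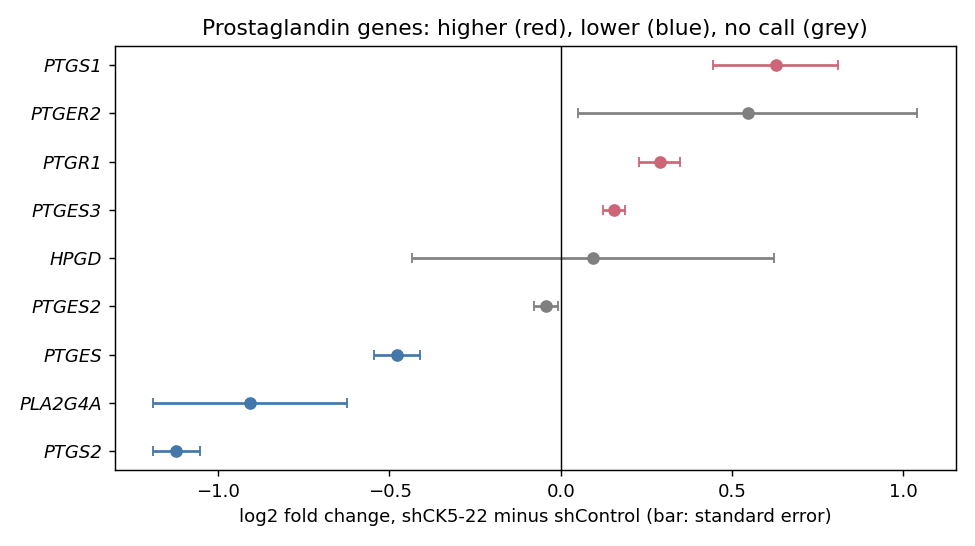
Log2 fold change, shCK5-22 minus shControl, of the 9 prostaglandin genes tested, with the standard error as a bar (red, called higher; blue, called lower; grey, not called). PTGS2 and PLA2G4A have the largest falls, and HPGD and PTGER2, each with 6 to 18 counts per library, have the widest bars.

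Other genes of the pathway were read from lists written by role. Over the 8 lists, which hold 170 distinct genes, 140 were tested, and 43 of these rose and 27 fell, with a median log2 fold change of 0.03 beside -0.01 over all genes tested. The 70 called of 140 stand beside 34.2% called over all genes tested. Calls were more frequent among better expressed genes, with 5948 of 13636 tested called at a filter of 1 CPM in 3 libraries. A share matched for level was not computed. No list moved in 1 direction alone. The counts of each list below stand beside 17.4% higher and 16.8% lower over all genes tested.

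Among genes of arachidonic acid supply and storage, 6 of 21 tested rose and 6 fell (median 0.01). The list mixes genes that free or make the acid with genes that store it, so these counts have no single meaning for supply. Other cytosolic phospholipases A2 went both ways: PLA2G4C rose by 1.02, from 3.18 ± 0.668 to 6.42 ± 0.287 CPM (adjusted p = 2.99e-06), and PLA2G4F fell by 1.08, from 2.12 ± 0.203 to 0.997 ± 0.217 CPM (adjusted p = 0.000189). FADS2, a desaturase on the route from linoleic to arachidonic acid, fell from 98.2 ± 2.83 to 51.3 ± 4.68 CPM (-0.93, adjusted p = 2.25e-09). ACSL4, which activates arachidonic acid for storage in lipids, rose by 0.31 from 298 CPM, ABHD6, a monoacylglycerol lipase, rose by 0.45 from 10.04 CPM, and MBOAT7, which places arachidonate into phosphatidylinositol, fell by 0.27 from 419 CPM.

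Enzymes for other prostanoids were mostly low or not called, with 2 of 8 tested higher and 1 lower (median 0.18). AKR1C3, a prostaglandin F synthase, rose by 0.48, from 3.44 ± 0.7 to 4.74 ± 0.52 CPM (adjusted p = 0.0117). The call was lost without shControl replicate 2 (adjusted p = 0.0742) and without shControl replicate 3 (0.0836). Its adjusted p lay between 0.00183 and 0.0836 in the alternatives, and 4.53% of its 50-base windows occurred in AKR1C2, AKR1C1 or AKR1C4, so its counts are uncertain. PRXL2B (listed as FAM213B), another prostaglandin F synthase, fell by 0.38, from 22.4 ± 1.92 to 17.2 ± 0.558 CPM (adjusted p = 0.000129). AKR1B1 of the same list was far more abundant, at 588 ± 99.3 and 663 ± 106 CPM. Its arms overlapped, and it was not called (adjusted p = 0.571). AKR1C1 rose by 0.78, from 0.706 to 1.21 CPM (adjusted p = 0.0194). AKR1B1 and AKR1C1 were named after their values were seen, and no alternatives were tried for them. CBR1, a carbonyl reductase that acts on prostaglandin E2, was listed at 0 in all libraries. PTGDS and HPGDS, the prostaglandin D synthases, had at most 4 and 8 counts in a library (named after their values were seen).

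Transporters that can carry prostaglandin E2 went both ways. SLCO2A1, the prostaglandin uptake carrier, stood at 4.16, 6.75 and 6.22 CPM in shControl and 10.09, 10.4 and 11.09 CPM in shCK5-22, and rose by 0.87 (SE 0.133, adjusted p = 0.000148). ABCC4, an efflux pump that exports prostaglandins, stood at 16.3, 15.6 and 16.2 CPM and at 24.4, 22.7 and 22.7 CPM, and rose by 0.54 (SE 0.0604, adjusted p = 4.46e-07). All shCK5-22 libraries were above all shControl libraries for both genes. SLCO4A1, another carrier, named after its values were seen, was at 19.04 ± 4.30 and 28.2 ± 5.27 CPM with arms that overlapped, and was not called (adjusted p = 0.151). In the whole list of transport and inactivation, 2 of 9 tested rose and 3 fell (median -0.09). Of those that fell, SLCO3A1 by 0.24 and ABCC1 by 0.12 (its arms overlapping) had small changes whose calls did not survive each omission of a library. SLCO3A1 lost its call without shControl replicates 1 (adjusted p = 0.134) or 3 (0.117) and without shCK5-22 replicates 2 (0.12) or 3 (0.0927), and also under DESeq2 (0.059), limma-voom (0.0523), upper quartile scaling (0.0508) and no filter (0.0612). ABCC1 lost it without shControl replicates 2 (0.145) or 3 (0.157) and without shCK5-22 replicates 2 (0.095) or 3 (0.141). Over the alternatives the adjusted p lay between 0.0303 and 0.134 for SLCO3A1 and between 0.0067 and 0.157 for ABCC1.

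Of the other prostanoid receptor genes, 1 of 6 tested rose and 1 fell. PTGFR, the receptor of prostaglandin F2 alpha, stood at 0.749, 1.32 and 1.40 CPM in shControl and 2.39, 2.71 and 1.89 CPM in shCK5-22, with no overlap. It rose by 0.99 (SE 0.213, 1.99-fold, adjusted p = 0.000968) on 36 to 162 counts. PTGFRN, a membrane protein named for its effect on that receptor, fell by 0.30 from 279 to 227 CPM (adjusted p = 3.45e-08). The EP1 receptor gene PTGER1 stood at 0.427 and 0.507 CPM and was not called (adjusted p = 0.651), and the EP3 receptor gene PTGER3 had at most 2 counts in a library.

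**Figure D4:**
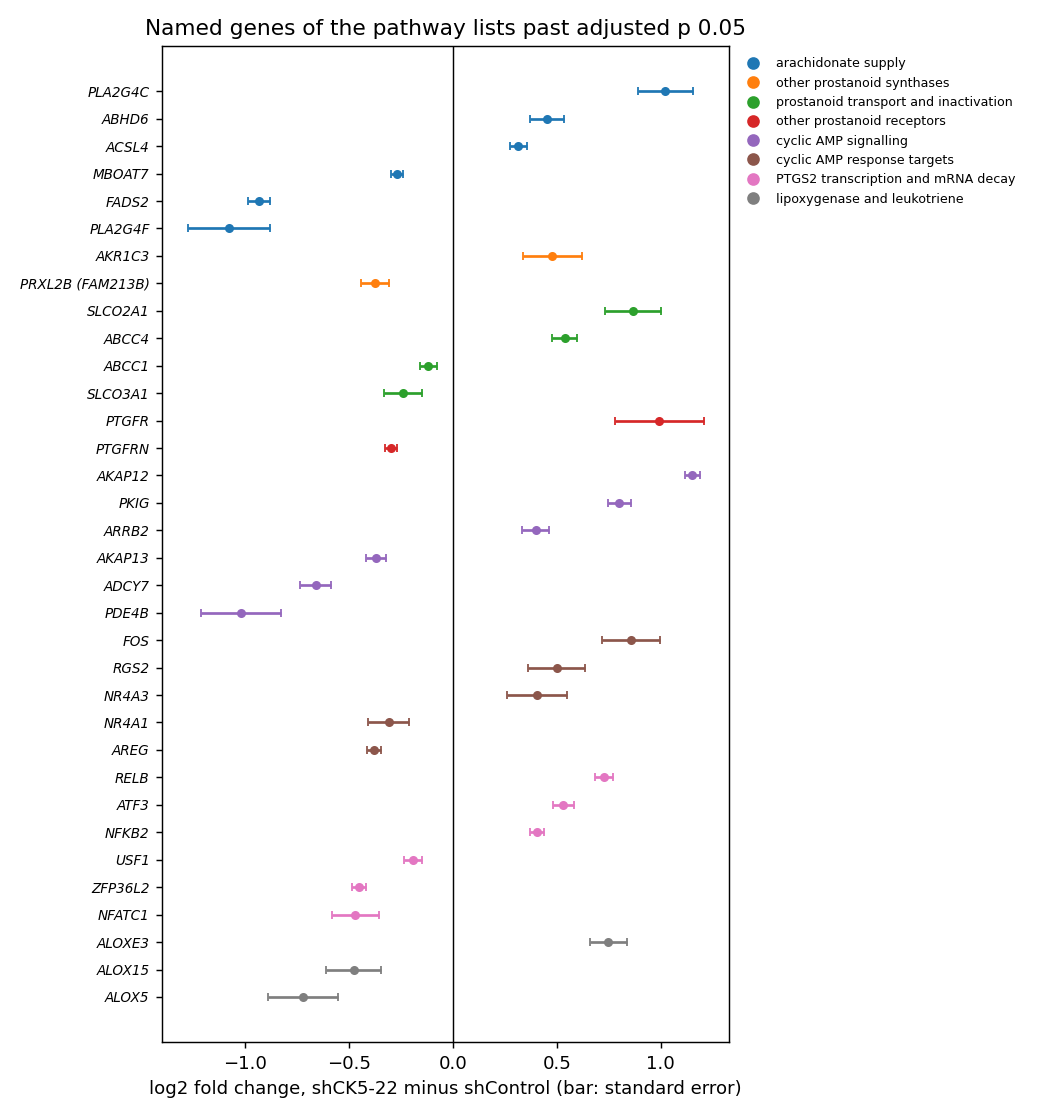
Log2 fold change, shCK5-22 minus shControl, with the standard error as a bar, of 34 named genes past an adjusted p of 0.05 in the 8 pathway lists, coloured by list and ordered within each. PLA2G4C, SLCO2A1, ABCC4, PTGFR and AKAP12 lie to the right and PLA2G4F, FADS2, PDE4B and ALOX5 to the left.

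EP2 and EP4 act through cyclic AMP. Of 43 genes of cyclic AMP signalling, 15 rose and 6 fell (median 0.04). AKAP12, a scaffold that holds protein kinase A, rose from 77.3 ± 3.26 to 172 ± 6.43 CPM (1.15, adjusted p = 1.53e-15), and PKIG, a protein kinase A inhibitor, from 18.5 ± 0.976 to 32.2 ± 0.761 CPM (0.80, adjusted p = 3.58e-10). ARRB2, an arrestin that switches off receptors, rose by 0.40. PDE4B, a phosphodiesterase that degrades cyclic AMP, fell by 1.02 (adjusted p = 0.000377) and ADCY7, an adenylyl cyclase that makes it, by 0.66 (adjusted p = 4.84e-07). Others of these families, named after their values were seen and without alternatives tried, went both ways. PDE4A and PDE10A rose by 0.34 and 0.36 (adjusted p = 0.000211 and 9.86e-06), and the other listed phosphodiesterases were not called. ADCY9 rose by 0.20 (adjusted p = 0.00289), while ADCY3 and ADCY6 fell by 0.15 and 0.25 (adjusted p = 0.00261 and 0.000393). AKAP13 fell by 0.37.

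Genes commonly induced by cyclic AMP did not move as a block, with 6 of 18 tested higher and 4 lower (median 0.02). FOS rose by 0.86, RGS2, a G protein regulator, rose by 0.50 (adjusted p = 0.00659), and AREG, an EGFR ligand, fell by 0.38 from 130 ± 2.72 to 99.9 ± 2.30 CPM. PDE4B, given above, is also in this list. The orphan receptor gene NR4A3 rose by 0.41 (adjusted p = 0.0349), but lost its call when any library except shCK5-22 replicate 2 was left out (0.0692 to 0.186) and in limma-voom (0.056). NR4A1 fell by 0.31 (adjusted p = 0.0191, arms overlapping) and lost its call without shControl replicate 1 (0.069), shControl replicate 3 (0.122) or shCK5-22 replicate 3 (0.114). The adjusted p of NR4A3 ranged from 0.00735 to 0.186 and that of NR4A1 from 0.00221 to 0.122 over the alternatives.

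Of known regulators of PTGS2 transcription and mRNA decay, 10 of 30 tested rose and 4 fell (median 0.04), beside 17.4% higher and 16.8% lower over all genes tested. The list mixes activators with decay factors, so these counts have no single meaning for PTGS2. The NF-kB subunit genes RELB and NFKB2 rose by 0.73 (42.6 to 70.5 CPM) and 0.40 (87.01 to 115 CPM). NFKB1 rose by 0.28 (71.2 to 86.7 CPM, adjusted p = 7.08e-06) and RELA by 0.13 (147 to 161 CPM, adjusted p = 0.00332). REL was not called (adjusted p = 0.343). NFKB1, RELA and REL were named after their values were seen, and no alternatives were tried for them. ATF3, a stress-induced factor, rose by 0.53 (26.9 to 38.9 CPM). NFATC1, an activator in other cell types, fell by 0.47 (5.49 to 3.96 CPM, adjusted p = 0.00245). The more abundant NFATC2 of the same family rose by 0.37 (26.2 to 34.04 CPM, adjusted p = 3.9e-05), and NFATC3 and NFAT5 were not called. These family members were named after their values were seen, and no alternatives were tried for them. USF1, an E-box factor, fell by 0.19 (adjusted p = 0.00132). Among proteins that bind AU-rich mRNA tails, the decay factor gene ZFP36L2 fell by 0.45 from 256 ± 6.14 to 187 ± 8.61 CPM (adjusted p = 8.72e-10). The other such genes are named after their values were seen. The decay factor gene ZFP36 fell by 0.19 (60.8 to 53.4 CPM, adjusted p = 0.00116), KHSRP, also a decay factor gene, rose by 0.24 (585 to 690.4 CPM, adjusted p = 9.24e-07), and ZFP36L1 (442 CPM in both arms), HNRNPD, CELF2 and the stabilising factor gene ELAVL1 were not called (adjusted p = 0.997, 0.0883, 0.36 and 0.94).

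The lipoxygenase branch, which draws on the same arachidonic acid, had 2 of 9 genes tested higher and 3 lower (median -0.06). ALOX5, the first enzyme of leukotriene synthesis, fell by 0.72, from 2.58 ± 0.366 to 1.56 ± 0.102 CPM (adjusted p = 0.00193), and ALOX15 fell by 0.48, from 5.06 to 3.64 CPM (adjusted p = 0.00764). The ALOX15 call was lost without shControl replicate 3 (adjusted p = 0.0821), and its adjusted p lay between 0.00119 and 0.0821 in the alternatives. ALOXE3, an epidermal lipoxygenase, rose by 0.75, from 6.51 ± 0.497 to 10.96 ± 0.638 CPM (adjusted p = 9.27e-07). At lower levels, ALOX5AP rose by 0.94, from 0.667 to 1.27 CPM (adjusted p = 0.00405). GGT1 fell by 1.04, from 1.14 to 0.555 CPM (adjusted p = 0.00551). ALOX5AP and GGT1 were named after their values were seen, and no alternatives were tried for them.

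**Figure D5:**
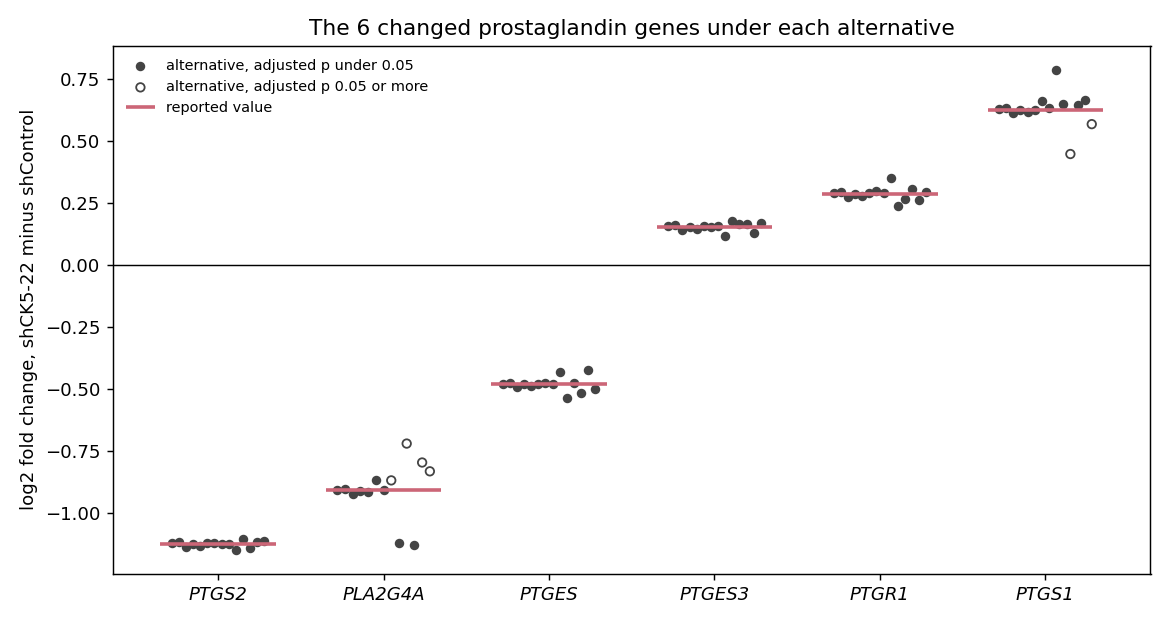
Log2 fold change, shCK5-22 minus shControl, of the 6 called prostaglandin genes as reported (red line) and under up to 14 alternatives of normalization, filter, tool, block and omitted library (filled, adjusted p under 0.05; open, 0.05 or more). Open points occur for PLA2G4A and PTGS1 only, and no point crosses 0.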

How the data were processed

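The authors deposited 1 table of whole-number read counts per gene symbol for 6 libraries of total RNA. Per the submitters' processing notes, cutadapt, STAR, SAMtools and Cufflinks were used with build GRCh38; for the counting tool, annotation and strand setting the sources used here give nothing. Of 56505 rows, 27 with a calendar date for a symbol (0.167% to 0.175% of counts) were left out. Among counts from 1 to 20, 88.3% were even, so read mates may be counted singly and counting precision is lower than the counts imply. A floor of 3 counts is 0.046 to 0.0624 CPM in a library, for counting error only.

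shCK5-22 was compared with shControl in edgeR 4.0.16 (R 4.3.3), with TMM, filterByExpr and robust quasi-likelihood tests, two-sided, adjusted over all genes tested at 0.05. Adjusted p-values without a named tool are edgeR's; an SE is the absolute log2 fold change over the root of F. Members and lists were chosen with earlier results of these data known; named list genes are up to 3 rises and 3 falls per list with a mean of at least 1 CPM, besides genes of prostaglandin E2 handling; 1 gene the rule names is not reported here. No p was computed over a list. Coordinates and exon lengths are from GENCODE 29, promoters from RefSeq (all 10 genes matched, 14 windows). Alternatives were RLE, upper quartile or library size only, other filters (none, or 1 CPM in 3 libraries), DESeq2 1.42.0, limma-voom 3.58.1, a threshold of 0.01, a replicate block, and leaving out each library.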

Additional observations from a re-analysis of the deposited data

How the results depend on the processing

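The count of prostaglandin genes called stayed at 6 under DESeq2, limma-voom, no filter, each other normalization and the replicate block. It was 5 with at least 1 CPM in 3 libraries, where PLA2G4A, HPGD and PTGER2 were not tested, and 4 at a threshold of 0.01. Leaving out 1 library gave 4 to 6 called prostaglandin genes, 56 to 72 called genes of the pathway lists (70 as reported) and 4910 to 6185 called genes in all (6153 as reported). PTGS2, PTGES, PTGES3 and PTGR1 kept their direction and call in all 15 alternatives. HPGD, not called, lay between -0.28 (without shControl replicate 2) and 0.58 (without shControl replicate 1) when 1 library was left out, and was also negative, at -0.17, without shCK5-22 replicate 1. The same replicate numbers in both arms showed no pairing, with correlations of 0.0164, 0.0517 and -0.00678 between deviations from the arm means. With the replicate block 6743 genes were called in all and 77 in the pathway lists. Levels per kilobase taken from the longest transcript kept the order of the members in both arms. Genes with few counts, HPGD and PTGER2 first, are limited by depth.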

Other observations

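Noncoding RNAs next to members of the pathway had fewer counts in the knockdown libraries at a pair of loci, named here after their values were seen. PTGES2-AS1 is a lincRNA at chromosome 9, 128128529 to 128130628 on the plus strand, opposite to PTGES2. It had 16, 24 and 16 counts in the shControl libraries against 8, 8 and 2 in the knockdown libraries (log2 fold change -1.64, adjusted p = 0.0194 in edgeR). PTGES2 itself was not called. The PTGES2-AS1 call rests on few counts and was not tried under the alternatives. PACERR, beside PTGS2, is given above. Neither overlaps the body of its neighbour in GENCODE. The mean ratio of PTGES3 to PTGES per kilobase of exon was 1.22 ± 0.138 in shControl and 1.89 ± 0.193 in shCK5-22 (SD, n = 3 each), with no overlap between arms, and that of PTGES to PTGES2 was 2.58 ± 0.162 and 1.91 ± 0.197.

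Several genes of the lists that most cell types express were listed at 0 in all libraries, including FADS1, LPCAT3 and CBR1 besides those named above. For 170 pathway genes 13 were at 0 throughout. A 0 across this table gives no reading of a gene's expression.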
